A study of Arabidopsis thaliana with 4 samples.

Results

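The genes described here are the 4 Rubisco small subunit genes RBCS1A (AT1G67090), RBCS1B (AT5G38430), RBCS2B (AT5G38420) and RBCS3B (AT5G38410), together with Rubisco activase, RCA (AT2G39730). They were taken by locus name and are 5 of the 25819 genes in the deposited table. RNA-seq was done on entire Arabidopsis thaliana plantlets (ecotype Columbia-0), wild type (WT) or larp1 mutant, that had grown for 21 days under continuous light at 20 °C on agar medium with sucrose. Pools of 6 to 8 plantlets were then kept for 15 min in liquid medium with sucrose, at 20 °C (control) or pre-warmed to 38 °C (heated). The 4 groups, control WT, heated WT, control larp1 and heated larp1, hold 1 library of 1 pool each, so nothing here has a replicate check and p-values are not given. The labels do not describe the larp1 allele.

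Rubisco fixes CO2 in the chloroplast. Its large subunit is encoded by the chloroplast gene rbcL, and its small subunits by nuclear genes, so that the enzyme is assembled from products of separate genomes. RCA is an ATP-driven chloroplast protein that removes inhibitory sugar phosphates from Rubisco active sites, and it is known for its sensitivity to heat. In green tissue the RBCS and RCA transcripts are among the most abundant of the nuclear genome.

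The deposited values are named RPM, a read count scaled to library size, and a gene's value here is the sum of its distinct exon entries. About 46067500 reads lie behind the RPM of control WT, 42603600 behind heated WT, 74418600 behind control larp1 and 44927600 behind heated larp1. LARP1A, the gene named in the genotype, stood at 37.1 and 33.1 RPM in the WT libraries at 20 and 38 °C, and at 9.21 and 9.29 RPM in the larp1 libraries. HSP101, a heat-induced chaperone, stood at 43.2 RPM in control WT and 10466 RPM in heated WT, and at 16.1 and 10666 RPM in larp1. Both checks go with the labels of genotype and temperature. Fold changes are on the log2 scale of RPM plus the worth of 1 read. Calls required a difference of at least 2-fold and a 95% counting interval, given in brackets, that excluded no change. These intervals cover counting error only.

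The 4 small subunit genes are close copies, which bears on how well short reads can tell them apart. RBCS1B, RBCS2B and RBCS3B lie next to each other on the minus strand of chromosome 5, and RBCS1A lies on chromosome 1. Their 135-base second coding exons are shown because they carry the bases by which reads of the copies can be separated. Capitals mark bases that differ from RBCS2B. The positions are RefSeq exons of the assembly TAIR10.1, minus strand, at chr1:25048838-25048972 for RBCS1A, chr5:15384761-15384895 for RBCS1B, chr5:15381583-15381717 for RBCS2B and chr5:15377911-15378045 for RBCS3B.
RBCS1A: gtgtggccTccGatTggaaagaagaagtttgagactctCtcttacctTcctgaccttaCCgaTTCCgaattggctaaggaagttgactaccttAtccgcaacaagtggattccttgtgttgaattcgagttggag
RBCS1B: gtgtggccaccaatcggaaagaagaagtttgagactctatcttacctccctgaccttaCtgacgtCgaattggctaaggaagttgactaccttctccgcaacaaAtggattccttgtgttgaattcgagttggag
RBCS2B: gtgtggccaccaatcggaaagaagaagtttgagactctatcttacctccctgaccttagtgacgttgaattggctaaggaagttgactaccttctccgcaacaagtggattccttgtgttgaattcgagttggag
RBCS3B: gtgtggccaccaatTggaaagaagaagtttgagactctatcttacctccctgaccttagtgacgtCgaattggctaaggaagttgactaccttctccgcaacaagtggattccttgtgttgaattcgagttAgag
RBCS1A differed from RBCS2B at 12 of the 135 bases, and RBCS1B and RBCS3B at 3 each. In the third coding exon RBCS1B and RBCS3B were 99.2% identical. They shared 131 windows of 100 bases, the length of the reads, without a mismatch, which is 32.3% of the windows of the 505-base last exon of RBCS1B and 27.9% of those of the 568-base last exon of RBCS3B. A read from these windows cannot be assigned to 1 of the pair, and how such reads were counted is not given in the sources used here. RBCS1A, RBCS2B and RCA had 0 such windows with a second exact match in the genome.

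At 38 °C every small subunit gene stood lower than at 20 °C in both genotypes, on the deposited scale, and the heat values of RCA lay closest to 0. RBCS1A stood at 8005 RPM in control WT, 4798 in heated WT, 6487 in control larp1 and 3281 in heated larp1. RBCS3B stood at 3243, 2536, 2611 and 1817 RPM in the same order of libraries. In both genes the WT library at 20 °C was the highest and the larp1 library at 38 °C the lowest. RBCS1B stood at 1003, 554 and 800 RPM in the first 3 of these libraries and at 375 RPM in heated larp1. RBCS2B stood at 958, 643, 735 and 493 RPM. RCA stood at 5483 RPM in control WT, 5187 in heated WT, 4623 in control larp1 and 3817 in heated larp1. The order of libraries was thus the same for RBCS1A, RBCS1B, RBCS2B and RBCS3B, with both 20 °C libraries above both 38 °C libraries, whereas RCA in heated WT stood above RCA in control larp1. Per kilobase of merged TAIR10.1 exon, with entries that do not overlap, control WT held 5633 RPM of RBCS1A, 1529 of RCA, 1410 of RBCS3B and 1025 of RBCS2B. By this length the order of these 4 genes was the same in the other libraries, and in heated larp1 the values were 2325, 1088, 800 and 527 RPM per kilobase. RCA and RBCS3B each have 3 transcript models, all shorter than their merged exons, so the order of RCA and RBCS3B can turn on the length taken. The deposited entries carry no lengths, and the place of RBCS1B also turns on the length taken. Its 4 once-listed entries go in number with its 4-exon model of 840 bases. In control WT RBCS1B stood at 529 RPM per kilobase of its merged exons, which include a version of the last exon of 1423 bases, and at 1194 per kilobase of its model with 840 exon bases, below and above RBCS2B. By that shorter model it also stood above RBCS2B in control larp1 (953 against 786) and below it in heated WT (660 against 688) and heated larp1 (446 against 527). In bulk RNA of plantlets, fewer cells that express a gene and less RNA per cell cannot be told apart.

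**Figure D1:**
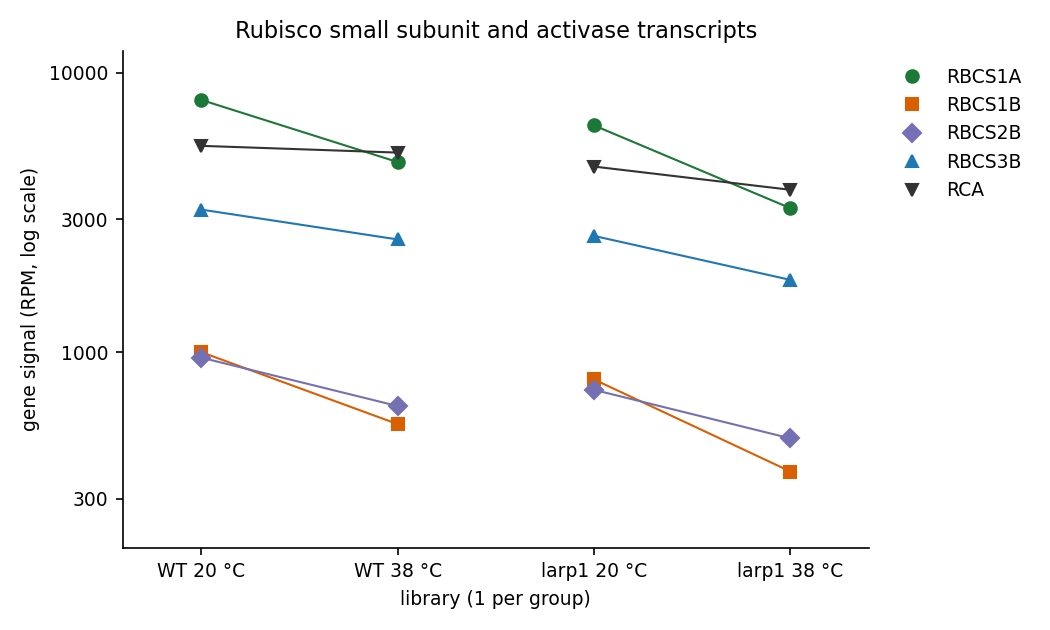
Deposited signal in RPM, summed over distinct exon entries, of the 5 genes in each of the 4 libraries (log axis, 1 library a group, 1 point each). Every gene is highest in control WT and lowest in heated larp1, from 8005 to 3281 RPM for RBCS1A and from 5483 to 3817 RPM for RCA.

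In WT, the heat value was −0.74 [−0.75, −0.73] for RBCS1A and −0.86 [−0.88, −0.83] for RBCS1B, which is 59.9% and 55.3% of their control level. It was −0.58 for RBCS2B, −0.35 for RBCS3B and −0.08 [−0.09, −0.07] for RCA, which stood at 94.6% of its control level. In WT 0 of the 5 genes passed 2-fold, against 29.2% of the 19387 genes compared (25% lower and 4.26% higher). The median of all compared genes was −0.51, so RBCS1A, RBCS1B and RBCS2B lay below it and RBCS3B and RCA above it. In larp1, the heat value was −0.98 [−0.99, −0.98] for RBCS1A, −0.58 for RBCS2B, −0.52 for RBCS3B and −0.28 [−0.28, −0.27] for RCA. RBCS1B was called lower in larp1, at −1.09 [−1.12, −1.07] or 46.9% of its 20 °C level. It was the only call among the 5, against 24% of the 20475 genes compared (19.8% lower and 4.19% higher), and the median of all genes was −0.43. By single exon entries with at least 50 reads, the lower RBCS1B entries were past 2-fold in WT as well, at −1.49 and −1.51. The highest RBCS1B entry was past 2-fold in neither genotype, at −0.66 in WT and −0.92 in larp1. The authors' deposited table lists RBCS1B among 700 genes at least 2-fold lower at 38 °C in larp1 and not in WT, with ratios of 0.553 in WT and 0.469 in larp1, and no other of the 5 is in its lists.

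For RBCS3B and RCA the direction of the heat value depended on scaling. TMM scaling, a trimmed mean of log ratios that sets most genes to no change, moved the heat medians by 0.51 in WT and 0.40 in larp1, and a median-of-ratios scaling by 0.53 and 0.43. The share of higher genes among all calls moved from 14.6% to 37.9% in WT and from 17.5% to 37.9% in larp1 under TMM, and to 39.8% and 40.9% under median-of-ratios scaling. Under TMM, RBCS1A stood at −0.23 in WT and −0.59 in larp1, RBCS1B at −0.35 and −0.70, and RBCS2B at −0.07 and −0.18. RBCS3B turned to 0.15 in WT, and RCA to 0.43 in WT and 0.12 in larp1. RBCS1B was no longer past 2-fold in larp1 under either scaling. A ratio of genes within a library does not depend on scaling. RCA over the summed small subunit signal, both from entries that do not overlap, was 0.290 in control WT and 0.436 in heated WT, and 0.303 and 0.462 in larp1.

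**Figure D2:**
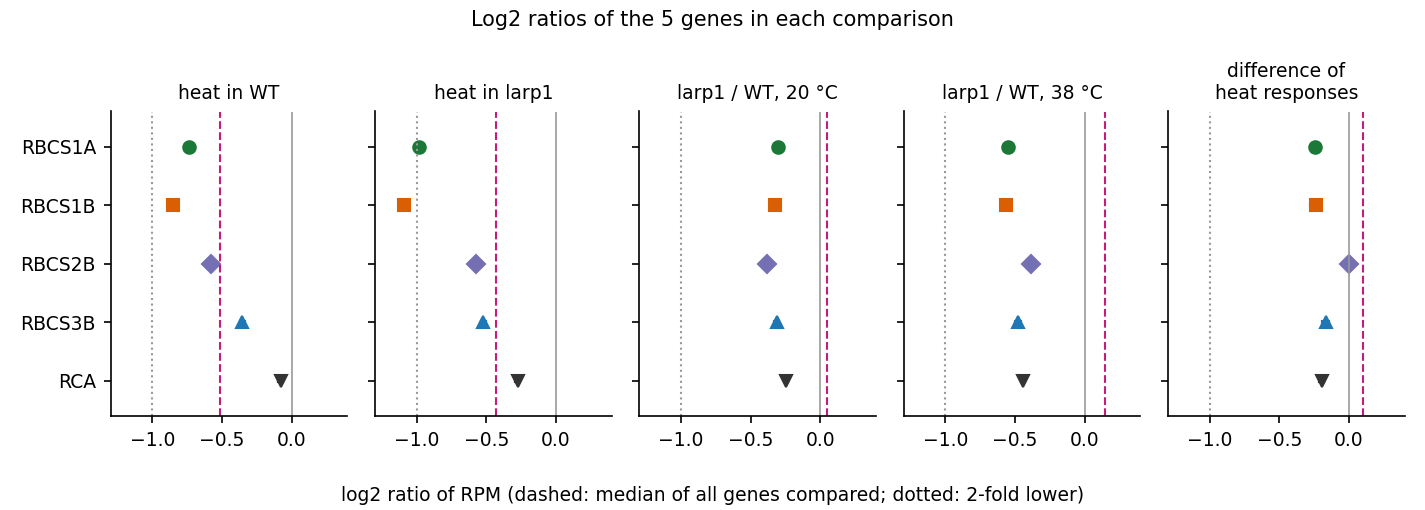
Log2 fold change of each of the 5 genes in the 4 comparisons and the difference of heat responses, with 95% counting intervals and the median of all compared genes. RBCS1B in larp1 at −1.09 is the only value past 2-fold, and RCA in WT at −0.08 lies closest to 0 among the heat values.

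The shares within the small subunit family differed between control and heated libraries. The lowest exon entry of each gene above 1 RPM, counting near-identical copies as 1 and matched to the second coding exon from the entries that transcript models share for RBCS1A and RBCS3B and assumed for RBCS1B and RBCS2B, then has the same length in all 4 genes. A further RBCS1B entry, at 0, 0.02, 0.03 and 0 RPM, was left out. By this entry RBCS1A made up 61.5% of the 4 in control WT, 58.1% in heated WT, 61.6% in control larp1 and 56.4% in heated larp1. RBCS3B made up 22.3%, 28.4%, 22.1% and 29.5%. RBCS1B made up 8.36%, 4.85%, 8.47% and 4.55%, and RBCS2B 7.92%, 8.62%, 7.90% and 9.53%. For RBCS1B the matched entry is one of its entries with the lower heat values, described next. Over all distinct entries RBCS1B made up 7.59%, 6.50%, 7.53% and 6.29%, and over entries that do not overlap 9.04%, 7.83%, 8.93% and 7.59%, so the size of its smaller share after heat depends on the entries taken. In both genotypes, by each of these sums, RBCS1A and RBCS1B took a smaller share after heat and RBCS3B and RBCS2B a larger one, and the genotypes had close shares at 20 °C. Over the whole family the distinct entries, some of which overlap, summed to 13209 RPM in control WT, 8531 in heated WT, 10634 in control larp1 and 5966 in heated larp1. Entries that do not overlap summed to 11092, 7077, 8965 and 4943 RPM in the same order.

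**Figure D3:**
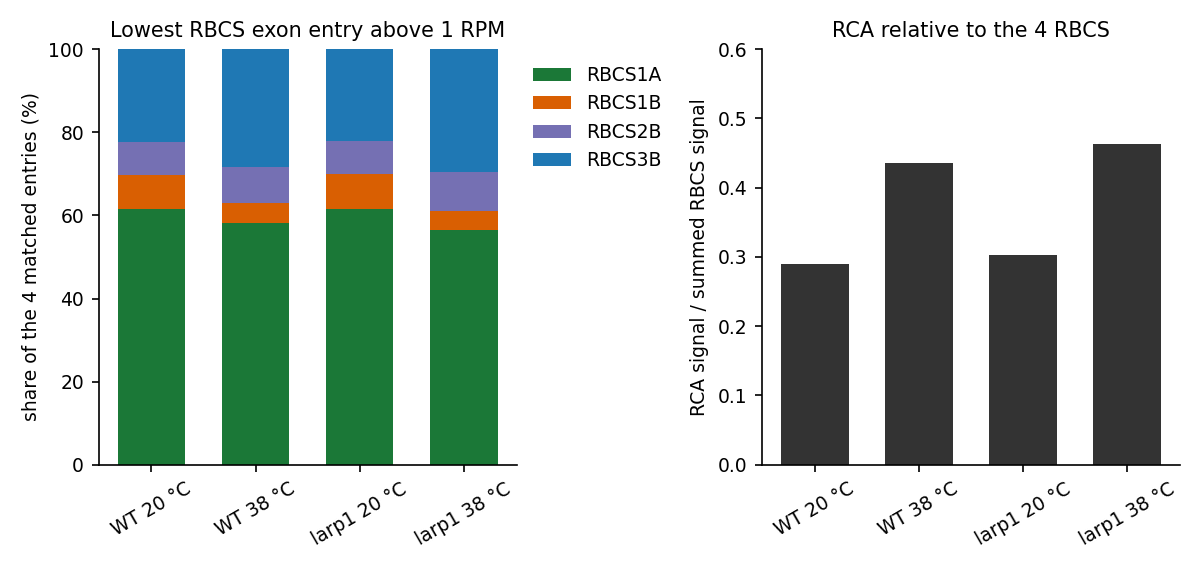
Share of each small subunit gene, in percent of the 4, by the lowest exon entry above 1 RPM (left, stacked bars), and RCA over the summed small subunit signal from entries that do not overlap (right). RBCS3B goes from 22.3% to 28.4% in WT and from 22.1% to 29.5% in larp1, and RBCS1B from 8.36% to 4.85% and from 8.47% to 4.55%.

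All RBCS exon entries with at least 50 reads stood lower at 38 °C in both genotypes, but not always by the same amount. In RBCS1A the highest of 3 separate entries stood at −0.68 in WT and −0.99 in larp1, and the lowest at −0.80 and −0.96. The middle entry of RBCS1A stood at 1733 RPM in control WT, 965 in heated WT, 1299 in control larp1 and 651 in heated larp1. In RBCS2B the entries stood at −0.59, −0.53 and −0.60 in WT and −0.60, −0.54 and −0.57 in larp1, and in RBCS3B at −0.39, −0.25 and −0.37 in WT and −0.61, −0.38 and −0.42 in larp1. RBCS1B was uneven. Its highest entry stood at 715, 452, 584 and 310 RPM (control WT, heated WT, control larp1, heated larp1), which is −0.66 [−0.69, −0.64] in WT and −0.92 [−0.94, −0.89] in larp1. Its next entries stood at 170, 60.6, 127 and 38.5 RPM and at 117, 41.2, 89.1 and 26.8 RPM. Their heat values were −1.49 [−1.56, −1.43] and −1.51 [−1.58, −1.43] in WT, and −1.72 and −1.73 in larp1. The highest entry of RBCS1B thus stood apart from the other 2 by more than the counting intervals. RBCS1B has 4 entries, each listed once and the lowest almost empty. This goes in number with its model of exons of 6, 194, 135 and 505 bases. With the 117 RPM entry taken as the 135-base exon, the highest entry would by size be the last exon, which shares windows with RBCS3B. The entries carry no positions, and a part of the shared windows in the difference was not tested.

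RCA entries also varied. The annotation gives RCA 3 transcript models, which differ in the first exon, in the donor of the sixth exon and in whether the last intron is kept. The sequence around the alternative donors at chr2:16571174-16571230 (TAIR10.1, minus strand) is shown because it sets the end of the protein. Capitals mark the 11 bases between the donors, and the run ends at the stop codon of the model that keeps the intron.
RCA: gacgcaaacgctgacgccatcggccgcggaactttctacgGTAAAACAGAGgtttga
Entries were matched to exons by which models share them, not by position. The 2 versions of the sixth exon stood at 819.21 and 819.12 RPM in control WT, a difference that cannot separate the isoforms. Their heat values were −0.11 in WT and −0.32 in larp1. The entry that holds the sixth exon, the intron and the last exon as 1 stood at 1383 RPM in control WT, 1275 in heated WT, 1168 in control larp1 and 930 in heated larp1, with heat values of −0.12 and −0.33. Entries with 1100 and 602 RPM in control WT stood at −0.03 and 0.01 in WT and at −0.24 and −0.15 in larp1. The first exon stood at 68.3, 68.6, 52.7 and 54.4 RPM, with heat values of 0.01 in WT and 0.05 in larp1. RCA entries above 50 RPM thus lay between −0.14 and 0.01 in WT. The lowest entry held 8, 21, 13 and 26 reads, below the minimum of 50 reads. RCA has an exon of 86 bases, shorter than a read.

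**Figure D4:**
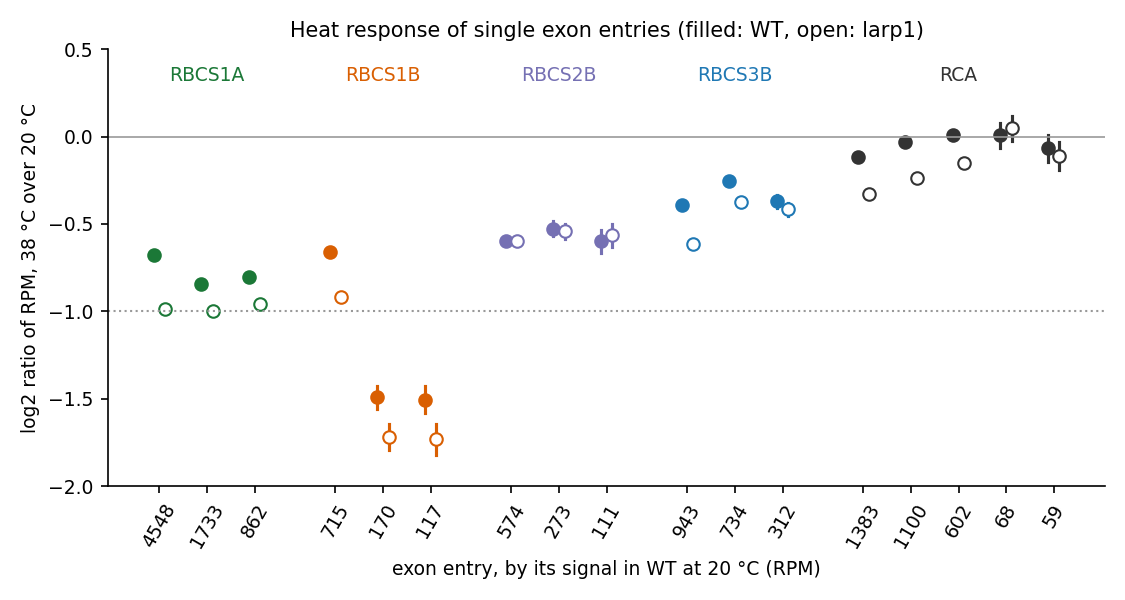
Heat log2 fold changes of the exon entries of the 5 genes in WT and in larp1, with 95% counting intervals, for entries that do not overlap and hold over 1 RPM in control WT (filled WT, open larp1, dotted line 2-fold lower). The 2 lower RBCS1B entries, at −1.49 and −1.51 in WT, lie apart from its highest entry at −0.66.

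At 20 °C all 5 genes stood lower in larp1 than in WT, with log2 values of −0.38 [−0.40, −0.36] for RBCS2B, −0.32 for RBCS1B, −0.31 for RBCS3B, −0.30 for RBCS1A and −0.25 [−0.25, −0.24] for RCA. At 38 °C the values were −0.56 [−0.59, −0.53] for RBCS1B, −0.55 for RBCS1A, −0.48 for RBCS3B, −0.44 for RCA and −0.38 for RBCS2B. At 20 °C 0 of 5 passed 2-fold, against 3.98% of 20299 genes (0.493% lower and 3.49% higher). At 38 °C 0 of 5 passed it, against 4.12% of 18528 genes (0.2% lower and 3.92% higher). The median of all genes was 0.04 at 20 °C and 0.14 at 38 °C, and between 5.13% and 11.9% of compared genes lay below each member at 20 °C and between 1.39% and 3.89% at 38 °C. All 5 stayed negative under TMM and median-of-ratios scaling, at 38 °C between −0.54 and −0.72 under TMM. Each library in these comparisons also enters a heat comparison.

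The difference of heat responses, larp1 minus WT, was −0.25 [−0.26, −0.23] for RBCS1A, −0.24 [−0.27, −0.21] for RBCS1B, −0.20 [−0.21, −0.18] for RCA and −0.17 [−0.18, −0.15] for RBCS3B. RBCS2B stood at −0.00 [−0.03, 0.03]. None passed 2-fold, 0 of 5 against 2.66% of 19349 genes (0.62% lower and 2.04% higher), and the median of all genes was 0.10. Under TMM the values lay further below 0, at −0.36 for RBCS1A and −0.11 for RBCS2B, and the share of higher genes among all calls moved from 76.7% to 61.7%. RBCS2B turned to 0.01 when the library totals left out organelle genes or the 5 genes themselves.

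rbcL, the large subunit partner, stood at 8.12 RPM in control WT, 9.62 in heated WT, 5.04 in control larp1 and 7.59 in heated larp1. Its heat values were 0.24 [0.04, 0.45] in WT and 0.59 [0.38, 0.81] in larp1, so it lay higher at 38 °C in both genotypes, without passing 2-fold on the deposited scale. Under TMM it stood at 0.75 in WT and 0.99 in larp1, and under median-of-ratios scaling at 0.77 and 1.03, the last past 2-fold. Per the labels, ribosomal RNA was removed with duplex-specific nuclease, which can also lower very abundant cDNA, and a part of that in the levels of RBCS, RCA or rbcL was not tested.

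Genes of the same process were read beside the 5. Over all genes, 25% were called lower and 4.26% higher in WT, and 19.8% and 4.19% in larp1. Under TMM the calls over all genes were 2182 lower and 1332 higher of 19387 in WT, and 2043 and 1245 of 20475 in larp1. Of 12 assembly factors of Rubisco, 2 were called higher and 1 lower in WT and in larp1, with list medians of −0.31 and −0.44. The higher ones were chaperonin subunits that fold the large subunit, CPN60B2 at 3.29 [3.23, 3.36] in WT and 3.72 in larp1 and CPN60A1 at 248 RPM in control WT and 569 in heated WT, and at 1.39 in larp1. The lower one was MRL1, which stabilises the rbcL transcript, at −1.19 in WT and −1.12 in larp1. Under TMM, CPN60A1 and CPN60B2 stayed past 2-fold in both genotypes, MRL1 did not, and the list median in WT was 0.19. Of 19 Calvin cycle genes 2 were called lower in each genotype, GAPA2 (−1.11 in WT, −1.38 in larp1) and RPI3 (−1.15, −1.11), with medians of −0.39 and −0.50, and 0 under TMM. Of 21 photorespiration genes 2 were called lower in each genotype, SHM2 (28.3 to 11.5 RPM in WT, −1.27 in larp1) and DIT1 (−1.16, −1.25), with medians of −0.37 and −0.40 and again 0 calls under TMM. Between genotypes 0 of these genes were called, against 3.98% of all genes at 20 °C and 4.12% at 38 °C. The medians at 20 and 38 °C were −0.19 and −0.28 for the Calvin cycle, −0.15 and −0.22 for photorespiration and −0.19 and −0.13 for assembly.

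Of 18 light-harvesting proteins 0 were called in WT (median −0.05), against 29.2% of all genes. In larp1 2 were called lower, LHCB1.2 at −1.22 and LHCB3 at −1.13, with a median of −0.56, against 19.8% of all genes called lower. Under TMM 0 were called in either genotype, and the medians were 0.46 in WT and −0.16 in larp1. All 18 lay below 0 in the difference of heat responses, with a median of −0.52, against a median of 0.10 for all genes and of −0.20 for the 5 genes here. Between genotypes 0 were called on the deposited scale, against 3.98% of all genes at 20 °C and 4.12% at 38 °C. The list median was −0.08 at 20 °C and −0.58 at 38 °C, where all 18 lay below 0 and the median of the 5 genes was −0.48. Under TMM, LHCB1.2 and LHCB2.3 were called lower in larp1 at 38 °C and LHCB2.3 in the difference. Over all genes, the lower calls under TMM numbered 69 of 18528 and 179 of 19349 in these comparisons. Of 7 light-response regulators, transcription factors known to act on light-induced genes, GBF2 was called higher, at 1.06 in WT and from 11.9 to 25.5 RPM in larp1. HYH (−1.83, −1.58), GLK1 (−1.89, −1.07) and GLK2 (−2.37, −1.38) were called lower in both. The shares over all genes were 25% lower and 4.26% higher in WT, and 19.8% and 4.19% in larp1. Under TMM, HYH and GBF2 stayed past 2-fold in both genotypes and GLK1 and GLK2 in WT, where GBF1 and GBF3 also passed it, higher.

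**Figure D5:**
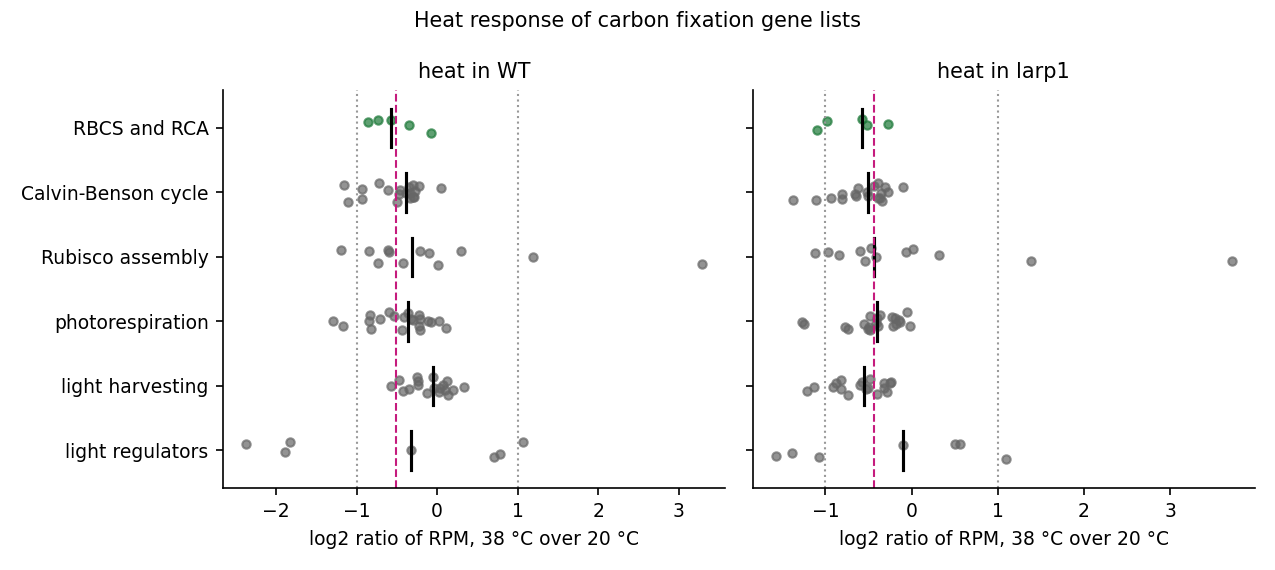
Heat log2 fold changes in WT and larp1 of the 5 genes and of the listed Calvin cycle, assembly, photorespiration, light-harvesting and regulator genes, 1 point a gene, with list medians (black bars), the median of all genes (dashed) and 2-fold (dotted). The chaperonin subunit CPN60B2 at 3.29 and 3.72 is the highest point, and light-harvesting genes have medians of −0.05 in WT and −0.56 in larp1.

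By the smallest root mean square difference of centred log2 profiles over the 4 libraries, among 9689 genes with at least 1000 reads, the genes nearest to RBCS1A were AT1G20430 (0.0166), GDC1 (0.0316), CHLI2 (0.0343), PSB28 (0.0357) and AT1G01080 (0.0488). RBCS1B lay at 0.0576 and RCA at 0.344. The nearest to RCA were AT1G29070 (0.0206), emb1473 (0.0214), AT4G25370 (0.0241), AT5G07020 (0.0287) and AT2G36160 (0.0301). These profiles describe 4 libraries.

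Whole plantlets also hold roots. The 11 root markers summed to 1024 RPM in control WT, 480 in heated WT, 1300 in control larp1 and 556 in heated larp1, mostly PYK10. Without PYK10 they summed to 77.1, 37.2, 76.6 and 42.1 RPM, with NRT2.1 at 0 in heated larp1. The 4 flower markers summed to 0.3, 0.39, 0.28 and 0.14 RPM, with 1, 0, 1 and 1 at 0. Of the root markers 1 was called higher and 4 lower of 8 compared in WT, and 1 higher and 5 lower of 9 in larp1. Over all genes 29.2% were called in WT and 24% in larp1. Under TMM 1 root marker was called higher and 3 lower in each genotype, and PYK10 was no longer called. Over all genes under TMM, 1332 were called higher and 2182 lower of 19387 in WT, and 1245 and 2043 of 20475 in larp1. Between genotypes, 1 of 8 root markers was called higher in larp1 at 20 °C, PLT2 at 1.17 on 16 reads in WT and 60 in larp1. At 20 °C 4 of the 8 lay below 0, with a median of −0.02. At 38 °C 0 of 8 were called, with a median of 0.19. Over all genes 3.98% were called at 20 °C and 4.12% at 38 °C. Of the flower markers 0 had enough reads. The part of the root and flower markers in the result was not tested.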

How the data were processed

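4 libraries, 1 for each genotype and temperature, were compared. Duplex-specific nuclease removed ribosomal RNA and single reads of 100 bases were sequenced, per the labels' protocols. The submitters' processing notes name BWA 0.5.9 and TAIR10. How reads were counted, by strand or when they match several places, is not given in the sources used here. A deposited main table gives, for each exon entry, a signal that the file headers call RPM, without coordinates. Its columns sum to more than RPM should, so the values were treated as a signal, and the suffix on the name of the control larp1 column is not explained. The authors' deposited tables also hold a ratio of 38 °C over 20 °C.

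Gene values were sums of the 132172 distinct entries of 181379, so a read in overlapping exons can enter a sum repeatedly and intervals are then too narrow. The worth of 1 read, from 0.0134 to 0.0235 RPM, gave reads. A minimum of 50 reads in any library set which genes were compared, with conditional binomial intervals. A read floor of 3 is 0.0403 to 0.0704 RPM. Sequences are RefSeq, TAIR10.1, which can differ from the build of the files. The 5 genes and all lists were chosen with earlier results of these data known. Some assembly genes are not reported here, and the counts and medians of that list leave them out. Named genes were the 5 with every exon entry, LARP1A, rbcL, HSP101, HSFA2, the nearest profiles, and list members by level, size of fold or a call. The calling was tested only on counts simulated from control WT, with planted changes and no variation between pools. That test cannot show how calls hold between pools. The tools were matplotlib 3.10.9, scipy 1.17.1, pandas 2.3.3 and numpy 2.4.6 in Python 3.11.15. TMM and median-of-ratios scaling, other library totals, read minimums, a pseudocount and other sums of entries were the alternatives.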

Additional observations from a re-analysis of the deposited data

Results flagged for a closer look

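HSP101, a chaperone, had a difference of heat responses, larp1 minus WT, of 1.45 [1.35, 1.56], with 43.2 and 16.1 RPM in the control libraries of WT and larp1 and close levels in the heated ones, 10466 and 10666 RPM. HSFA2, a heat shock transcription factor, had a difference of 2.49 on the same scale, with 20.5 and 3.51 RPM in the control libraries of WT and larp1 and 3677 and 3548 RPM in the heated ones. Both were flagged because the heat responses of the genotypes differed at least 2-fold, with counting intervals that excluded no difference. With 1 library a group these differences have no replicate check.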

How the results depend on the processing

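In larp1 after heat, 1 of the 5 genes was called on the deposited scale, RBCS1B. It was 0 under TMM scaling, 0 under median-of-ratios scaling, 0 with totals without the 100 highest genes and 0 with the highest entry alone, and it was 2 (RBCS1A and RBCS1B) with totals without organelle genes and 2 with totals without the 5 genes. The count in the other comparisons stayed at 0 under every alternative run. These alternatives took gene sums or the highest entry, and the lower RBCS1B entries stood past 2-fold in WT, at −1.49 and −1.51. RCA in WT turned to 0.12 with totals without the 100 highest genes. Under TMM and median-of-ratios scaling the heat value turned positive for RBCS3B in WT and for RCA in both genotypes. Over all genes, heat calls in WT numbered 5666, against 3514 (TMM) and 3489 (median of ratios). With a minimum of 10 reads or none, calls between genotypes numbered 1381 and 1509 at 20 °C (808 as reported) and 1337 and 1431 at 38 °C (763), and calls in the difference 839 and 880 (514). A pseudocount of 0.5 RPM gave 206 in the difference. Leaving out overlapping entries, the length by transcript model of RBCS1B and the values of listed genes and rbcL under other scalings were chosen after seeing the data. Entries with at least 1 RPM gave no value for genes that have none. No paired analysis was possible because each group has 1 library. With no replicates, counting error is the only error that was measured, and variation between pools was not. In counting error, depth limits mainly the entries with few reads.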

Other observations

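In RCA, the entry that spans the sixth exon, the last intron and the last exon exceeded the sum of the separate entries by 0.19 RPM in control WT, 0.61 in heated WT, 0.11 in control larp1 and 0.64 in heated larp1, about 9, 26, 8 and 29 reads. Rounding can account for up to 0.015 RPM of each value. The excess was larger in both 38 °C libraries. This entry was picked after its values were seen.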
